A study of Mus musculus with 75 samples.

Results

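The 10 genes described here are a named list of the NRF2 antioxidant system: Nfe2l2, which encodes the transcription factor NRF2, Keap1, which encodes its inhibitor, and the NRF2-responsive genes Hmox1, Nqo1, Gclm, Gclc, Txnrd1, Srxn1, Slc7a11 and Gsr. The list was given by name, and all 10 were found among the 24984 genes of the count files. Each of them passed the low-count filter in every experiment. Levels are counts scaled to a common library size (CPM) with edgeR's trimmed mean of M values, and a call is an adjusted p under 0.05 over all genes tested in that experiment.

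The cells were primary skin fibroblasts of C57BL/6 mice, and 44 RNA-seq libraries were used. For replicative senescence, untreated fibroblasts of female mice aged 2 months gave 4 libraries each at passages P1, P3, P5 and P7. E2f4_OE (2 libraries) carried a lentiviral, doxycycline-induced E2f4 and was set against the vector control E2f4_OE_control (2 libraries), in pre-senescent cells. The knockdown groups had 3 libraries each and carried lentiviral hairpins: E2f4_sh1 with the control E2f4_nt in proliferating P3 cells, Tead1_sh3 and Tead1_sh4 with Tead1_nt, and, in pre-senescent cells, Atf3_sh5 and Atf3_sh6 with Atf3_nt. The methods state that overexpression and knockdown cells came from newborn and 2-month-old mice, without saying which library came from which. The Y-linked gene Ddx3y had no reads in any passage library. Every intervention library, controls included, held Ddx3y reads (7.359 to 135.5 CPM) together with Xist, which is transcribed from the inactive X. The labels do not give the sex of these cells, and its part in the results was not tested. ATAC-seq, which measures open chromatin, covered P1 (4 samples), P3, P5 and P7 (3 samples each).

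Library totals ran from 13430229 to 15725823 counts over the passages and from 9147324 to 27552949 over the interventions. E2f4 stood at 1118 and 1180 CPM in the E2f4_OE libraries against 35.45 and 47.54 in their controls, and at 20.36 to 21.77 CPM in E2f4_sh1 against 59.61 to 60.84 in E2f4_nt. Tead1 stood at 267.9 to 284.9 CPM with sh3 and 313.3 to 320.4 with sh4 against 507.9 to 572.1 with the control hairpin. Atf3 was scarce, with 52 to 78 reads in the control libraries, 8 to 41 with sh5 and 26 to 36 with sh6. In CPM it was at 2.771 to 3.308 in the control, 0.4511 to 2.098 with sh5 (log2 -1.14 ± 0.39, adjusted p = 0.0447) and 1.511 to 2.092 with sh6, where the difference did not pass (log2 -0.79 ± 0.39, adjusted p = 0.114). A marker counted as detected in a group when any library of the group held reads of it, and as at 0 when none did. All 10 fibroblast markers looked at were detected in every group. P1 also held other cells. The 14 macrophage markers summed to 352.1 to 544.3 CPM at P1 and 49.15 to 68.59 at P3. They summed to 23.2 to 33.56 at P5 and 35.74 to 56.71 at P7. Taking the libraries of a group together, all 14 were detected at P1, P5 and P7, and Fcgr1 was at 0 at P3. Single P7 libraries held 8 to 13 of the 14. The 8 endothelial markers, all detected in both groups, summed to 177.1 to 200.5 CPM at P1 and 12.4 to 15.89 at P7. Single P7 libraries held 6 to 7 of them. The 10 keratinocyte markers summed to 73.57 to 433.3 CPM at P1, 6.036 to 9.436 at P3 and 14.83 to 18.9 at P7, where Krt14 and Krt1 were at 0, and the 10 muscle markers to 152.1 to 234, 55.84 to 64.08 and 39.34 to 110.5 CPM, with Ckm at 0 at P3 and Myog, Myod1, Ckm and Actn2 at 0 at P7. The fibroblast markers summed to 24780 to 26750 CPM at P1 and 39090 to 41700 at P7. The part of these cells in comparisons with P1 was not tested. Atf3_sh5 replicate 3 stood apart from its group. Chi-square over degrees of freedom was 55.9 and 59.9 between it and the other 2 libraries, which had 3.20 between them. In bulk RNA, fewer cells of a type and less RNA per cell cannot be told apart.

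NRF2 is held in the cytoplasm by KEAP1, which presents it to a CUL3 ubiquitin ligase for destruction. Oxidants and electrophiles modify KEAP1 cysteines, NRF2 then enters the nucleus, pairs with a small MAF protein and binds antioxidant response elements (AREs). BACH1 competes for the same elements. NRF2 activity is therefore set largely at the protein level, which RNA does not measure. Its targets supply glutathione (Gclc, Gclm, Slc7a11, Gsr), thioredoxin reduction (Txnrd1, Srxn1), quinone reduction (Nqo1) and haem breakdown (Hmox1).

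The ARE letters were searched first in open chromatin, because they show where NRF2 could meet these genes. The letters TGACNNNGC were sought on both strands in the 59 merged ATAC-seq peaks that lay within 10000 bases of a start site of the 10 genes. They were found in 21 of these peaks (35.6%), against 22.0% of all 306858 merged peaks. Peaks near the 10 genes had a median length of 477 bases and all peaks 423, but single peaks varied and the shares were not matched for length. Within 100 bases of the summit, which gives every peak the same length, the shares were 16.9% and 11.2%. Every one of the 10 genes had a match in at least 1 such peak. Of the 30 matches, 6 overlapped the AP-1 letters TGACTCA, and 4 of those 6 lay at Hmox1. In RefSeq's promoter windows (GRCm38.p6, 250 bases before to 50 after a start), 7 of the 10 genes were listed, and Hmox1, Gclc and Gsr were not. Of their 9 windows, 4 (44.4%) held the letters, against 12.4% of 32851 windows of all genes. A match is a description of letters, not a measured site.

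Hmox1 (GRCm38 chr8:75093618-75100593, plus strand), which encodes the inducible haem oxygenase, carried 5 of its 6 matches in 2 clusters far upstream of the start site, and the other, 5934 bases upstream, lay in a peak listed in 1 sample. The farther cluster lay in chr8:75083933-75084030, 9665 to 9608 bases upstream, and the nearer in chr8:75089682-75089774, 3916 to 3864 bases upstream. Both lie between genes, both peaks were listed in all 13 ATAC-seq samples, and both stretches are shown on the minus strand with the ARE letters in capitals. They are shown because Hmox1 had the most abundant transcript of the list per length and among the clearest changes.
Hmox1 farther cluster: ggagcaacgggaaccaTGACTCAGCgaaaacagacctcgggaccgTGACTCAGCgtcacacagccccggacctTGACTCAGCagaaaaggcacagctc
Hmox1 nearer cluster: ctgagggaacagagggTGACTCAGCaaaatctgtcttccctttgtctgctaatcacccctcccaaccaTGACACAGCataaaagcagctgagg

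All 3 copies in the farther cluster read TGACTCAGC, which also holds the AP-1 letters. The nearer cluster has 1 copy of that kind and 1 copy, TGACACAGC, that does not hold them. For genes whose levels moved in other ways a single match is shown, and each of these genes also had another match in a peak. Windows that touched an exon were not printed, among them that of a Gsr match 257 bases downstream of the start site. The Gclc match shown lay 3786 bases upstream of the start site (chr9:77750729-77750769, minus strand, between genes). The Gsr match shown lay 7505 bases inside the gene (chr8:33660723-33660763, plus strand, intron). The Txnrd1 match lay 88 bases upstream of a start site (chr10:82859098-82859138, minus strand, intron of the longer transcript), and the Nfe2l2 match 236 bases upstream (chr2:75704879-75704919, minus strand, between genes). The Slc7a11 match lay 867 bases upstream of the curated start (chr3:50444460-50444500, plus strand). Their peaks too were listed in all 13 samples.
Gclc: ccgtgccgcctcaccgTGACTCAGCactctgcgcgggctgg
Gsr: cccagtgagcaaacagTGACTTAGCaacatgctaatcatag
Txnrd1: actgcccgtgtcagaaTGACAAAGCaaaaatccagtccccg
Nfe2l2: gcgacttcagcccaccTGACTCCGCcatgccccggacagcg
Slc7a11: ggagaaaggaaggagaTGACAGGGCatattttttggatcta

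Of these 5, the Gclc stretch alone reads TGACTCAGC, as 4 of the 5 copies in the Hmox1 clusters do. In Nqo1 (chr8:107388225-107403205, minus strand) the promoter window held no match. Its strongest peak, centred 9 bases from the start site, held none of these letters either. The only Nqo1 match lay 8994 bases upstream, in a peak listed in 4 samples. Only the letters TGACNNNGC were sought, so an ARE with other letters would have been missed.

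The passages asked how gene activity shifts as fibroblasts approach replicative senescence. Between P1 and P7 the NRF2 genes did not move as 1 group. Hmox1 and Nqo1, with Gclm, rose, with calls at P7 against P5, while Slc7a11, Gsr and Gclc, which import cystine, recycle glutathione and catalyse its synthesis, fell. Of the 10 genes, 5 were called higher and 3 lower at P7 against P1, where 30.5% of the 13442 genes tested were called higher and 31.9% lower. The count of lower genes was thus near the share over all genes, and Keap1 and Txnrd1 did not pass. The median log2 fold change of the 10 was 0.17, beside -0.01 over all genes tested. Against P3, 5 were higher and 3 lower at P7, with 24.8% and 26.5% of all genes. Against P3 the log2 fold changes were 1.08 for Hmox1, 1.3 for Nqo1, 0.54 for Srxn1, 0.34 for Keap1 and 0.33 for Gclm, and -0.42 for Gclc, -0.68 for Gsr and -1.89 for Slc7a11, while Nfe2l2 (-0.02) and Txnrd1 (-0.13) did not pass. The comparisons between passages share libraries and are not separate evidence.

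**Figure D1:**
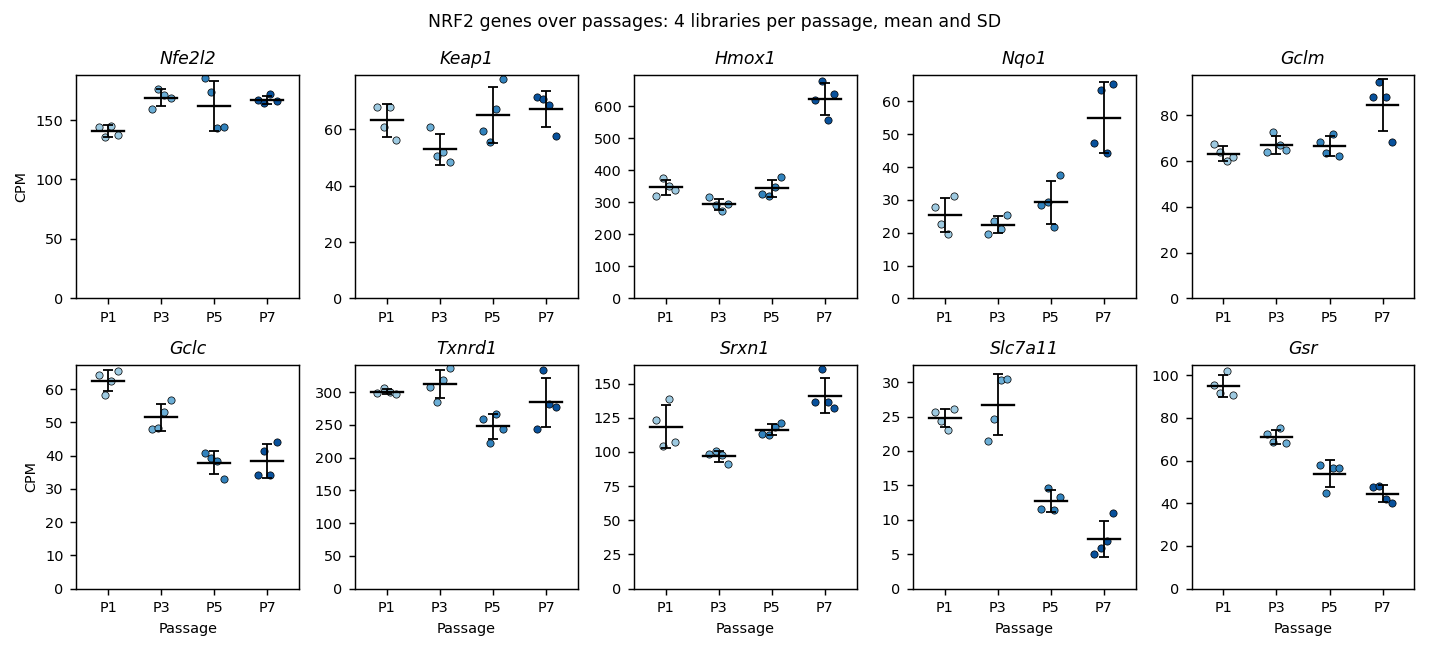
CPM (y axis, from 0) of the 10 NRF2 genes in each of 4 libraries at P1, P3, P5 and P7 (x axis); points are libraries, horizontal lines the means and bars the SD. Hmox1 and Nqo1 are highest at P7, whereas Gsr, Slc7a11 and Gclc stand highest at P1 or P3 and low at P5 and P7.

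Hmox1 stood at 319.5, 377.0, 351.1 and 338.0 CPM at P1 and at 620.4, 678.2, 558.0 and 637.2 CPM at P7. The P7 libraries were all above the P1 libraries. The difference was 1.80-fold, with a log2 fold change of 0.85 ± 0.08 (SE) and an adjusted p of 4.18e-08. P3 lay lower (273.4 to 316.1 CPM) and P5 between 319.0 and 377.8 CPM, and P7 was above P5 (log2 fold change 0.86 ± 0.08, adjusted p = 1.58e-06). Macrophages, which break down haem, express Hmox1. The sum of their markers was lower at P7 than at P1. It was higher at P7 (35.74 to 56.71 CPM) than at P5 (23.2 to 33.56 CPM), without overlap. From P3 to P7 Hmox1 rose 2.12-fold (adjusted p = 4.21e-09), and the macrophage sums of these 2 groups overlapped. The part of macrophages in the Hmox1 changes was not tested.

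Nqo1, the quinone reductase often used as a readout of NRF2, measured 27.94, 22.77, 19.48 and 31.12 CPM at P1 and 47.33, 63.43, 44.35 and 65.24 CPM at P7. Again the groups did not overlap, although P7 libraries spread over 44.35 to 65.24 CPM. The rise was 2.17-fold (log2 1.12 ± 0.17, adjusted p = 9.65e-06). It passed between P5 and P7 (log2 0.91 ± 0.17, adjusted p = 8.30e-04), while the step from P1 to P3 did not pass the test (log2 -0.18, adjusted p = 0.439).

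Glutamate-cysteine ligase makes the rate-limiting step of glutathione synthesis, and its 2 subunits moved in opposite directions. Gclm (chr3:122245487-122267215), the modifier subunit, was at 67.32, 64.09, 59.88 and 61.63 CPM at P1 and 88.17, 94.37, 87.77 and 68.21 CPM at P7, where the lowest P7 library was just above the highest P1 library. Its log2 fold change was 0.42 ± 0.09 (adjusted p = 5.82e-04). Gclc (chr9:77754535-77794489), the catalytic subunit, was at 64.17, 58.17, 62.55 and 65.41 CPM at P1 and 34.27, 41.51, 34.12 and 44.02 CPM at P7. No P7 library reached the P1 range, and the fall was 1.63-fold (log2 -0.70 ± 0.10, adjusted p = 4.50e-06). Gclc fell from P3 to P5 (log2 -0.45 ± 0.10, adjusted p = 0.00274) and did not pass between P5 and P7 (log2 0.02, 95% interval -0.17 to 0.22).

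Slc7a11 (chr3:50364936-50499087), the cystine carrier of the xCT antiporter, showed the steepest fall of the list. It was at 25.68, 24.4, 23.11 and 26.05 CPM at P1, at 11.57, 14.59, 11.37 and 13.37 at P5 and at 4.962, 5.864, 6.917 and 10.99 at P7. These 3 groups did not overlap, each lying below the earlier passage. P7 was 3.45-fold below P1 (log2 -1.78 ± 0.18, adjusted p = 7.37e-08). P3 against P1 did not pass (log2 0.11, 95% interval -0.22 to 0.43). The fall came at P5 against P3 (log2 -1.07 ± 0.17, adjusted p = 2.04e-04) and at P7 against P5 (log2 -0.82 ± 0.19, adjusted p = 0.00466).

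Gsr (chr8:33653238-33698162), glutathione reductase, fell at each step. Its libraries measured 95.47, 91.68, 101.9 and 90.96 CPM at P1, 72.35, 68.8, 75.44 and 68.32 at P3, 58.15, 44.6, 56.41 and 56.53 at P5, and 47.56, 48.3, 42.04 and 40.16 at P7. P1, P3 and P5 did not overlap, while the lowest P5 library lay inside the P7 range. The P7 level was 2.13-fold below P1 (log2 -1.09 ± 0.09, adjusted p = 4.39e-09). The last step, P7 against P5, was the weakest (log2 -0.28 ± 0.09, adjusted p = 0.0434) and lost its call when any of 5 libraries was left out: P5 replicates 1, 3 or 4, or P7 replicates 3 or 4 (adjusted p = 0.0783 to 0.13).

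The factor and its inhibitor moved little at the RNA level. Nfe2l2 (chr2:75675513-75704663, minus strand) had 144.2, 135.9, 145.4 and 137.2 CPM at P1 and 166.6, 164.2, 171.5 and 165.7 CPM at P7. The groups did not overlap, and the difference was 1.19-fold (log2 0.25 ± 0.08, adjusted p = 0.0136). It was already present at P3 (159.5 to 176.3 CPM, adjusted p = 0.0185), a call that was lost without P1 replicate 2 or P3 replicate 2 (adjusted p = 0.0547 and 0.0516). Keap1 (chr9:21229730-21239332, minus strand) did not pass between P7 and P1 (log2 0.09, 95% interval -0.13 to 0.30, adjusted p = 0.509). It passed between P3, its lowest point at 52.8 CPM, and P7 (log2 0.34 ± 0.11, adjusted p = 0.0134).

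The 2 thioredoxin-related genes showed small changes. Srxn1 (chr2:152105524-152111376), the sulfiredoxin that reduces over-oxidised peroxiredoxins, was 1.19-fold higher at P7 than at P1 (adjusted p = 0.0197), with overlapping groups, and the call was lost without P1 replicate 2, P1 replicate 4 or P7 replicate 2 (adjusted p = 0.0792, 0.071 and 0.0811). Against P3 it was 1.46-fold higher with no overlap (adjusted p = 6.52e-05). Txnrd1 (chr10:82833951-82897724), cytosolic thioredoxin reductase, had means of 301, 312, 248 and 284 CPM from P1 to P7, and did not pass between P7 and P1 (log2 -0.08, 95% interval -0.26 to 0.09).

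The steps between neighbouring passages had fewer calls. From P1 to P3, 1 gene was called higher (Nfe2l2) and 4 lower (Hmox1, Gclc, Srxn1 and Gsr), against 16% and 17.5% of all genes. Of these, Gsr kept its call without any single library. Nfe2l2 lost it as above, Hmox1 lost it without P1 replicate 2 or 3 or P3 replicate 2, 3 or 4 (adjusted p = 0.0716 to 0.117), Gclc without P1 replicate 1, 3 or 4 or P3 replicate 1, 2 or 3 (0.052 to 0.0957), and Srxn1 without P1 replicate 1 or 3 or P3 replicate 4 (0.0551 to 0.0937). From P3 to P5, 3 were higher (Keap1, Hmox1 and Srxn1) and 4 lower (Gclc, Txnrd1, Slc7a11 and Gsr), against 13.4% and 15.3%. The 3 higher calls of this step, with log2 fold changes of 0.22 to 0.30, were lost without P3 replicate 2, 3 or 4 or P5 replicate 3 or 4, and that of Srxn1 also without P3 replicate 1 (adjusted p = 0.0526 to 0.183). From P5 to P7, 4 were higher (Hmox1, Nqo1, Gclm and Srxn1) and 2 lower (Slc7a11 and Gsr), against 7.67% and 9.10%. Srxn1 lost its call there without P5 replicate 1, 2 or 3 or P7 replicate 2 (adjusted p = 0.0598 to 0.129).

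Per kilobase of exon, Hmox1 had the highest level of the list at P1 (220 ± 15.3 CPM per kb, SD, n = 4) and Slc7a11 the lowest (2.69 ± 0.15). The same 2 genes bounded the list at P7, at 396 ± 31.7 and 0.78 ± 0.29. Txnrd1 came after Hmox1 at both passages (74.8 ± 0.99 and 70.8 ± 9.28). Nfe2l2 and Gsr were alike at P1 (36.8 ± 1.26 and 35.6 ± 1.87) and apart at P7 (43.7 ± 0.83 and 16.7 ± 1.51).

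Across the libraries, some of the 10 genes ran together. Over the 16 passage libraries, log2 CPM of Hmox1 correlated with Nqo1 at r = 0.885 and with Srxn1 at 0.809, while Gclc correlated with Gsr at 0.859 and Slc7a11 with Gsr at 0.795. Hmox1 and Slc7a11 ran opposite (r = -0.843), and Nfe2l2 followed neither Hmox1 (0.0845) nor Srxn1 (-0.0619). These points share 4 passage groups and are a description. With the mean of each experiment taken off, over all 44 libraries, Gclc and Gsr still had r = 0.770, Hmox1 and Srxn1 0.697, and Hmox1 and Nqo1 0.495. The opposite run of Hmox1 and Slc7a11 was weak there (r = -0.284). Hmox1 and Gsr turned from -0.633 over the passages to 0.104, and Srxn1 and Gsr from -0.405 to 0.39.

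The other genes of the pathway were taken from 7 lists with 79 genes, of which 75 could be tested over the passages. At P7 against P1, 42 were called higher and 13 lower, with a median log2 fold change of 0.41, beside 30.5% higher, 31.9% lower and a median of -0.01 over all genes tested. At P7 against P3, 40 were higher and 13 lower, beside 24.8% and 26.5%. The counts by list below are of P7 against P1, and their 2 genes of each direction are those with an average log2 CPM of at least 3. Of 13 partners and regulators, 7 were higher and 3 lower. Mafk, a small MAF partner of NRF2, was higher (log2 1.11 ± 0.13) and so was Nfe2l1, the NRF2 relative that governs proteasome genes (0.88 ± 0.09). Bach1, the repressor at AREs, was lower (log2 -0.77 ± 0.10, from 66.29 ± 3.54 to 38.74 ± 5.03 CPM, SD, n = 4), as was Cul3 (-0.37 ± 0.14), the scaffold of the ligase that removes NRF2.

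In glutathione synthesis and use, 9 of 20 genes were higher and 4 lower. The membrane glutathione transferase Mgst3 (log2 1.73 ± 0.19) and Gsto1 (1.18 ± 0.13) rose, and the secreted peroxidase Gpx3 (-0.81 ± 0.15) and the exporter Abcc4 (-0.50 ± 0.10) fell. The fall of Gpx3 was already present at P3 against P1 (log2 -0.96 ± 0.15). Its mean was 366.8 CPM at P1, 189.1 at P3 and 209.8 at P7. Of 11 thioredoxin and peroxiredoxin genes, 8 were higher and 1, Prdx4 (-0.49 ± 0.11), was lower. Txnip, which encodes a thioredoxin-binding inhibitor and so does the opposite of a reductant, had the largest log2 fold change of that list (1.60 ± 0.09), before the peroxidase Prdx2 (0.95 ± 0.10). Of 7 genes of NADPH supply, Taldo1 (0.53 ± 0.09) and Me1 (0.42 ± 0.08) were higher and G6pdx, the entry enzyme of the pentose phosphate pathway, was lower (-1.06 ± 0.13).

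Haem and iron genes were evenly split, with 4 of 9 higher and 4 lower. Ftl1, the ferritin light chain, rose (log2 0.67 ± 0.13) while the transferrin receptor Tfrc fell (-1.40 ± 0.14) from 181.2 ± 12.8 to 68.7 ± 8.23 CPM, and Abcb6, a porphyrin transporter, fell too (-1.23 ± 0.10). Blvrb, a biliverdin reductase, was called higher with overlapping groups (0.68 ± 0.19). Quinone, carbonyl and xenobiotic enzymes had 9 of 11 higher and the other 2 not passing. Among those of at least that average level Ephx1 (1.64 ± 0.10) and Aox1 (0.99 ± 0.18) had the largest rise. Of the 4 superoxide and hydrogen peroxide enzymes, 3 were higher, among them Sod3 (1.87 ± 0.23) and Cat (0.68 ± 0.08), and the other did not pass.

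**Figure D2:**
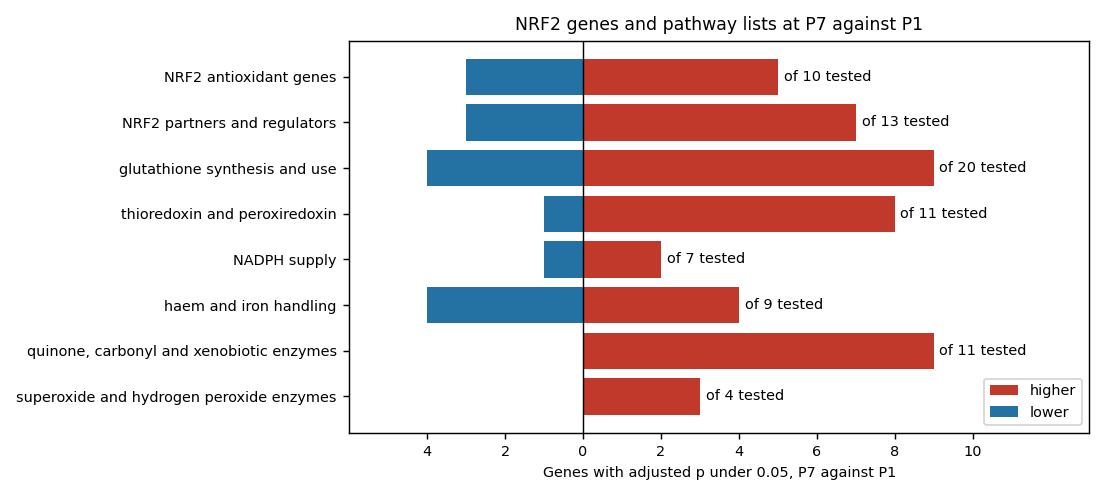
Number of genes called higher (red, right) and lower (blue, left) at P7 against P1 in the NRF2 genes and in each of 7 pathway lists, with the number tested beside each bar. The haem and iron list has 4 on each side, and the quinone, carbonyl and xenobiotic list has 9 higher of 11 tested.

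ATAC-seq compared open chromatin at the 10 start sites. The strongest listed peak within 1000 bases of a start site was ranked by its -log10 p among all peaks of its sample, as a percentile. The start sites of all 10 genes had a peak in all 13 samples. At P7 against P1, 5 of the 10 genes were lower with no overlap between the 4 and 3 samples and the other 5 overlapped, where 32.3% of 14852 gene promoters were lower and 14% higher. Gclc changed most, from 84.16 ± 3.34 (SD, n = 4) at P1 to 56.47 ± 2.23 (n = 3) at P7, with 75.98 ± 12.5 at P3 and 69.09 ± 3.28 at P5. Keap1 went from 80.45 ± 1.87 to 68.58 ± 6.16 and Gsr from 87.68 ± 1.94 to 81.87 ± 3.50. Nfe2l2 (98.78 to 96.97) and Srxn1 (98.12 to 96.87) moved by under 2 percentile points. For each of these 5 the exact 2-sided permutation p was 0.0286, the smallest that 35 splits allow, unadjusted. Such a p follows from the lack of overlap by which these genes were picked, and is not separate evidence. Ranked by fold enrichment instead, Keap1, Gclc and Nqo1 were lower and Slc7a11 was higher (88.75 ± 1.33 to 91.75 ± 0.42) with no overlap, whereas Nfe2l2, Srxn1 and Gsr overlapped.

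**Figure D3:**
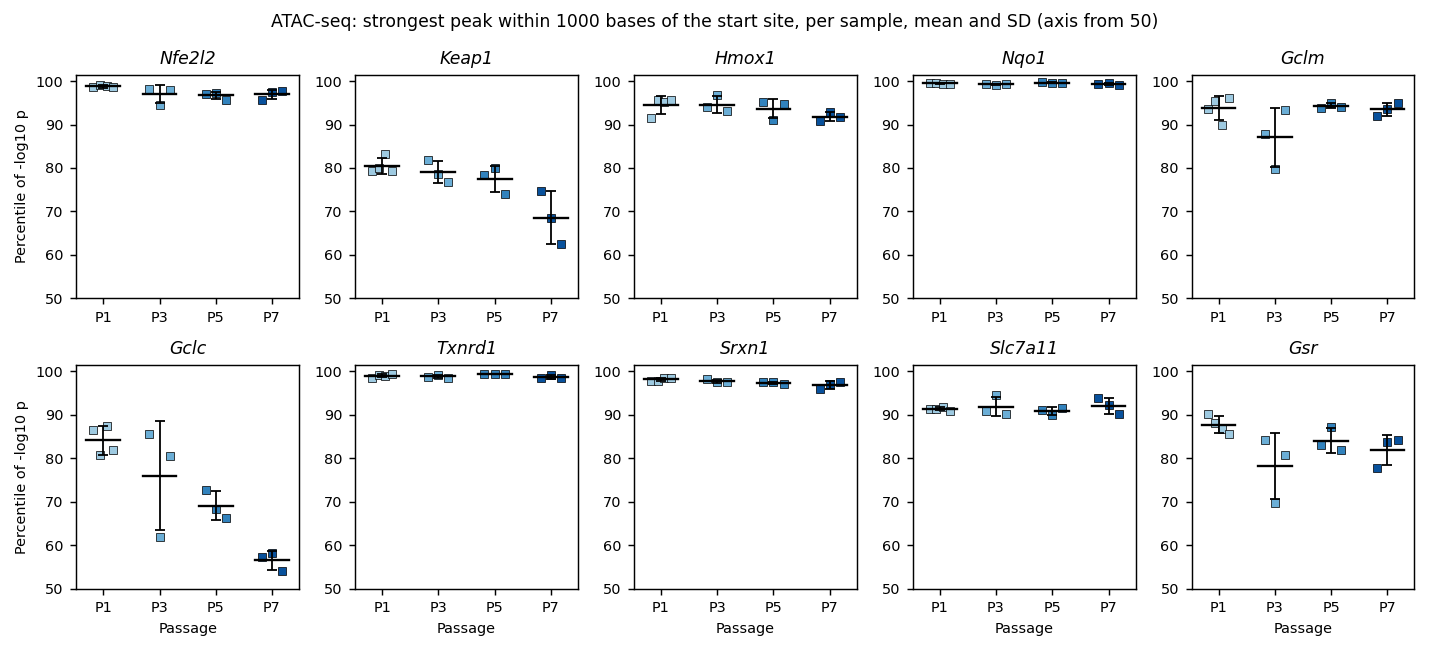
Percentile of the strongest ATAC-seq peak within 1000 bases of each start site (y axis, starting at 50) in each sample at P1, P3, P5 and P7 (x axis); squares are samples, lines the means and bars the SD. The Gclc peak lies lowest at P7, while the Nqo1 and Txnrd1 peaks stay near the top in every sample.

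The start-site peaks of Hmox1 (94.49 ± 2.03 at P1, 91.83 ± 1.04 at P7) and Nqo1 (99.45 ± 0.20 and 99.33 ± 0.13) overlapped between the passages, although their RNA rose. That of Slc7a11 overlapped too (91.33 ± 0.33 and 92.04 ± 1.85), although its RNA fell. The peaks that hold the Hmox1 clusters printed above kept their rank: the farther one was at 97.0 ± 0.31 at P1 and 96.9 ± 0.40 at P7, and the nearer one at 94.3 ± 1.78 and 94.1 ± 0.84. The Gclc peak with the printed match, 3887 bases upstream, stood at 83.7 ± 2.13 and 83.5 ± 3.89, unlike the start-site peak of the same gene. Near Gsr, peaks centred 8913 bases upstream (40.4 ± 4.32 to 76.0 ± 3.10) and 6057 bases downstream of the start (49.3 ± 3.27 to 81.9 ± 4.75) stood at a higher percentile at P7, while its RNA fell. Neither holds the ARE letters. Peak lists give no read counts, so percentiles describe ranks within a sample and not an amount of accessibility.

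E2f4 overexpression asked what the cell-cycle factor E2F4 does in pre-senescent cells. Keap1, Hmox1, Gsr and Txnrd1 were called higher and Nqo1 and Slc7a11 lower, where 28.9% of 13199 genes were called higher and 28.2% lower. Hmox1 and Nqo1, which rose together over the passages, thus parted here. Hmox1 was at 273.7 and 336.4 CPM with E2f4 and at 149.4 and 170.3 with the vector (1.91-fold, log2 0.93 ± 0.13, adjusted p = 1.45e-04). Nqo1 was at 71.94 and 67.19 against 161.4 and 128.7 CPM (2.09-fold lower, log2 -1.06 ± 0.13, adjusted p = 7.76e-05). The groups of both genes lay apart, with 2 libraries on each side.

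Keap1 stood at 65.83 and 70.24 CPM with E2f4 against 37.59 and 40.4 CPM (1.75-fold, adjusted p = 2.02e-04). Gsr was at 55.15 and 65.23 against 31.43 and 31.29 CPM (1.92-fold, adjusted p = 1.38e-04). Both were higher in each E2f4 library. The calls of Txnrd1 (log2 0.35 ± 0.10, adjusted p = 0.0130) and Slc7a11 (-0.51 ± 0.14, adjusted p = 0.00937) were lost without an E2f4_OE library: Txnrd1 without replicate 1 or 2 (adjusted p = 0.0755 and 0.111) and Slc7a11 without replicate 2 (0.1). Nfe2l2 did not pass (log2 0.07, 95% interval -0.13 to 0.27). Of 77 pathway genes, 25 were higher and 18 lower (28.9% and 28.2% over all genes), among them Slc3a2, the partner chain of the Slc7a11 protein (log2 1.13 ± 0.13), Sod1 (1.03 ± 0.18), Aox1 (-2.67 ± 0.16) and the glutathione-degrading Chac1 (-1.57 ± 0.20).

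Sex-linked and cell marker transcripts also differed between these libraries. The Y-linked gene Ddx3y was at 7.359 to 9.961 CPM in E2f4_OE and at 36.48 to 36.76 CPM in the control, and Xist, transcribed from the inactive X, was at 559.5 to 686.4 and 1156 to 1400 CPM. The summed level of 10 skeletal muscle markers was 23.27 to 24.18 CPM and 66.88 to 76.59 CPM, with Myh3, Myog, Myod1 and Ckm at 0 in both groups and 6 of 10 detected in each. That of 10 keratinocyte markers was 89.57 to 92.37 and 55.53 to 59.59 CPM, with Krt1 at 0 in both groups and Krt5 and Krt14 in the control. The fibroblast sum was 26800 to 27020 and 28110 to 30790 CPM. The endothelial sum was 9.079 to 9.379 and 4.148 to 5.302 CPM, with Tie1 at 0 in both groups and Vwf in the control. Whether these differences came from E2f4 or from the cells used was not tested, nor was their part in the result.

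**Figure D4:**
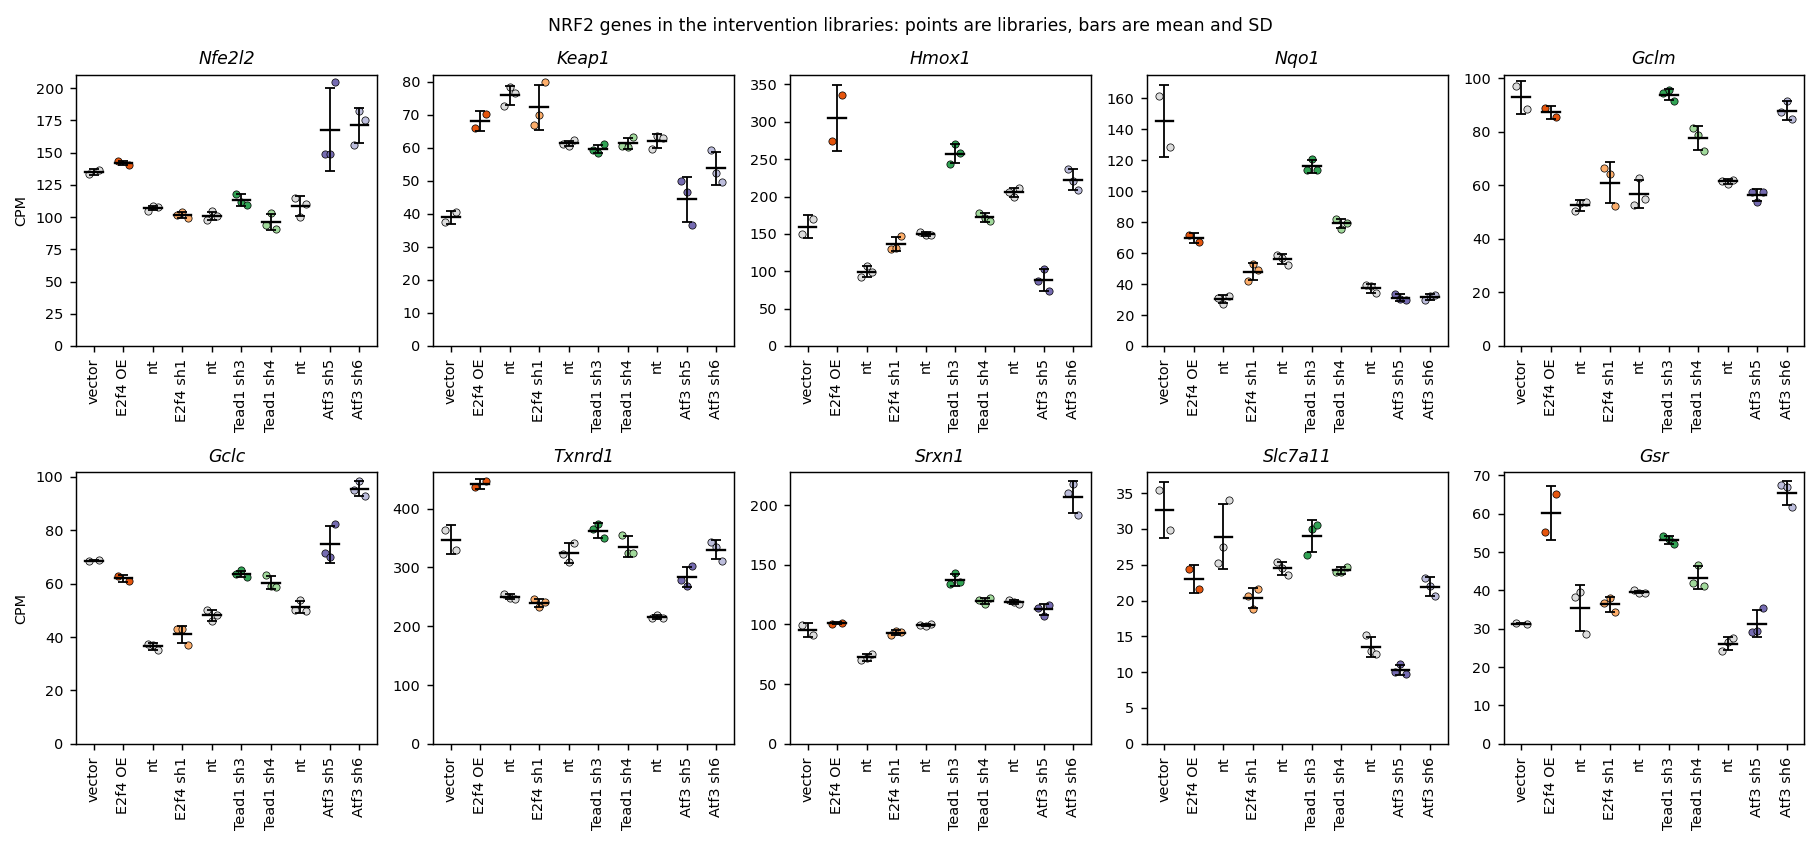
CPM (y axis, from 0) of the 10 genes in each intervention library, with the control first in each experiment (vector, or nt for the non-targeting hairpin; OE is overexpression); points are libraries, lines the means and bars the SD. Levels are to be compared within an experiment, and Nqo1 shows opposite directions under E2f4 overexpression and E2f4 knockdown.

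E2f4 knockdown in early-passage cells moved fewer of the genes. Hmox1, Nqo1 and Srxn1 were called higher and Slc7a11 lower, with 10% of 12310 genes higher and 7.79% lower. Nqo1 was at 42.01, 52.88 and 49.13 CPM with sh1 and 30.79, 27.37 and 32.32 with the control hairpin (1.59-fold, log2 0.67 ± 0.11, adjusted p = 6.30e-04). Hmox1 was at 129.7, 131.5 and 147.3 against 91.78, 106.7 and 99.58 CPM (1.37-fold, adjusted p = 9.33e-04). Srxn1 was at 90.82, 94.26 and 93.99 against 69.93, 71.96 and 75.1 CPM (1.29-fold, adjusted p = 0.00249). In all 3 genes every sh1 library was above every control library. The macrophage sum was 17.63 to 23.42 CPM with sh1 and 9.254 to 14.57 CPM in the control. In each group 12 of 14 markers were detected, with 7 to 11 per sh1 library and 6 to 12 per control library. Fcgr1 and Cd163 were at 0 with sh1 and C1qc and Cd163 at 0 in the control. The muscle sum was 112.5 to 136.9 and 75.46 to 77.28 CPM, with 6 of 10 markers detected with sh1, where Myh3, Myog, Myod1 and Ckm were at 0, and 8 of 10 in the control, where Myog and Myod1 were at 0. The fibroblast sum was 29510 to 32940 CPM with sh1 and 39100 to 39870 CPM in the control. Their part was not tested.

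Slc7a11 was 1.42-fold lower with sh1 (20.67, 18.83 and 21.56 against 25.25, 27.47 and 34.06 CPM, adjusted p = 0.0112). That call was lost without sh1 replicate 2 (adjusted p = 0.0524) or control replicate 3 (0.0844). Hmox1 was thus called higher, and Slc7a11 lower, with more E2f4 and with less, in cells of different passages, while Nqo1 went opposite ways. The 2 experiments have their own controls and were not tested against each other. Of 75 pathway genes, 17 were higher and 6 lower (10% and 7.79% over all genes), including Sod3 (log2 1.31 ± 0.08), Gsta4 (0.85 ± 0.15), Nqo2 (-0.44 ± 0.12) and Syvn1 (-0.40 ± 0.08).

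Tead1 encodes a factor that binds DNA for the co-activators YAP and TAZ. With hairpin sh3, 9 of the 10 genes were called higher, where 17.6% of 13012 genes were called higher and 17.7% lower. The gene that did not pass was Keap1 (log2 -0.04, 95% interval -0.14 to 0.06). The median log2 fold change of the 10 was 0.41, beside 0.00391 over all genes tested. With sh4, 5 were higher (Hmox1, Nqo1, Gclm, Gclc and Srxn1) and the other 5 did not pass, with 14.4% and 14.7% of all genes. The 2 hairpins share their control libraries, and the study's hairpin list gives them overlapping target sites, so they are not a pair of independent sites. Their values are given side by side.

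Nqo1 had 113.5, 120.7 and 113.8 CPM with sh3, 81.89, 75.67 and 79.69 with sh4 and 58.49, 57.03 and 52.22 in the control. The 3 groups lay apart in that order, at log2 fold changes of 1.05 ± 0.05 (adjusted p = 7.52e-16) and 0.50 ± 0.05 (adjusted p = 1.30e-08) over the control. Hmox1 had 243.9, 270.3 and 258.1 CPM with sh3, 177.9, 171.0 and 167.0 with sh4 and 152.2, 148.2 and 148.3 in the control. Its log2 fold changes were 0.78 ± 0.04 and 0.20 ± 0.04. Gclm (94.38, 95.39 and 91.61, then 81.27, 78.69 and 72.63, against 52.54, 62.76 and 54.8 CPM) followed the same order.

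Gclc and Srxn1 also stood above the control with both hairpins, by log2 0.40 ± 0.06 and 0.33 ± 0.06 for Gclc and by 0.46 ± 0.04 and 0.27 ± 0.04 for Srxn1. Gsr was higher with sh3 (54.08, 53.32 and 52.09 against 40.0, 39.34 and 39.45 CPM, log2 0.43 ± 0.06) and did not pass with sh4 (0.13, adjusted p = 0.123). The sh3 calls of Nfe2l2 (log2 0.16) and Slc7a11 (0.24) were small. Nfe2l2 lost its call without sh3 replicate 1 or control replicate 1 (adjusted p = 0.0719 and 0.0535) and Slc7a11 without sh3 replicate 2 or 3 or control replicate 3 (0.053 to 0.065).

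Set directly against sh3, sh4 had 7 of the 10 genes lower and the other 3 (Keap1, Gclc and Txnrd1) not passing, where 3.34% of all genes were higher and 4.03% lower. The differences were largest for Hmox1 (log2 -0.58 ± 0.04) and Nqo1 (-0.55 ± 0.05). Tead1 itself was lower in every sh3 library than in any sh4 library. The 10 muscle markers summed to 65.15 to 75.17 CPM with sh3, 73.22 to 83.8 with sh4 and 98.7 to 99.7 in the control, with 6, 8 and 6 detected, Myog and Myod1 at 0 in all 3 groups and Ckm and Actn2 at 0 with sh3 and in the control. Keratinocyte markers summed to 18.58 to 23.05, 16.34 to 18.8 and 13.18 to 14.56 CPM in the same order. Krt14 and Krt1 were at 0 in each group, and Epcam with sh3. Fibroblast markers summed to 34170 to 35020, 33020 to 33910 and 35170 to 36360 CPM. Their part was not tested. Among 77 pathway genes, 31 were higher and 13 lower with sh3 (17.6% and 17.7% over all genes), and 18 and 17 with sh4 (14.4% and 14.7%). Blvrb rose with both (log2 1.21 ± 0.08 and 0.76 ± 0.08), as did Cyp1b1 (0.85 ± 0.04 and 0.59 ± 0.04). Dpp3, whose protein competes with NRF2 for KEAP1, fell with both (-0.79 ± 0.05 and -0.63 ± 0.05), as did Mgst3 (-0.68 ± 0.08 and -0.53 ± 0.08) and Bach1 (-0.49 ± 0.06 and -0.54 ± 0.06).

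**Figure D5:**
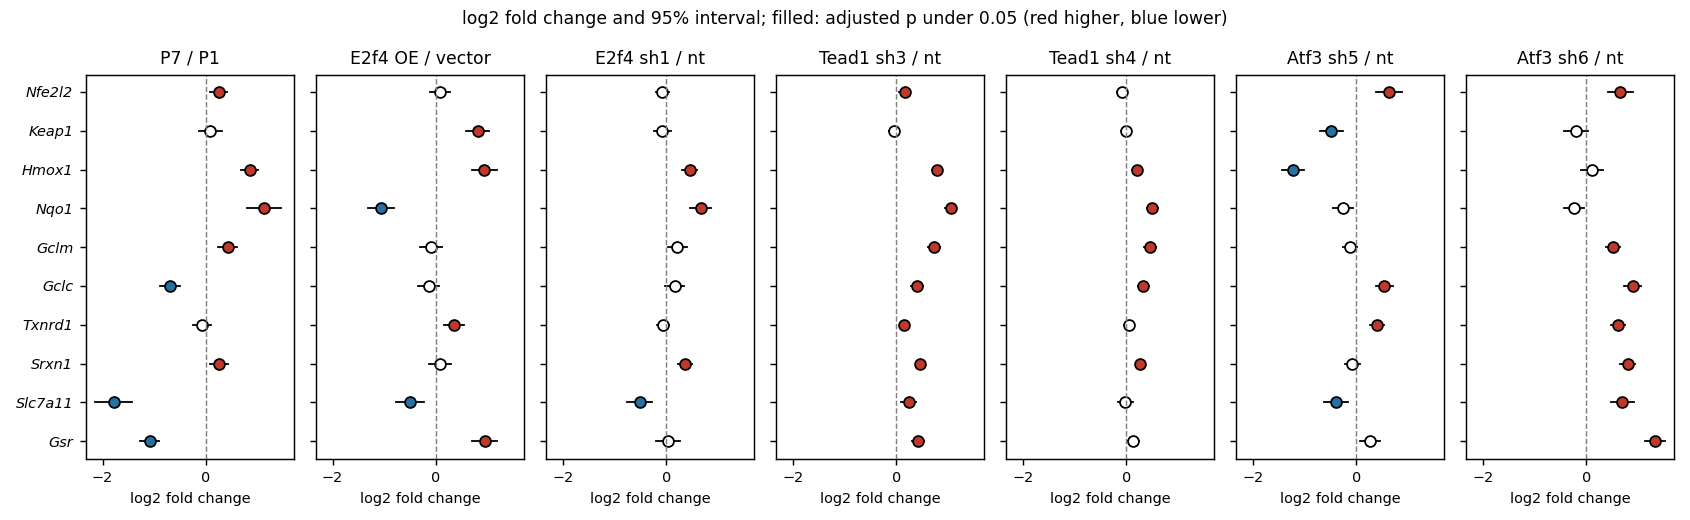
Log2 fold change (x axis) of each of the 10 genes (y axis) at P7 against P1 and in 6 interventions against their controls (nt, non-targeting); horizontal lines are 95% intervals and filled points passed an adjusted p under 0.05 (red higher, blue lower, white not passed). Tead1 sh3 has 9 red points and 1 white, whereas P7 against P1, E2f4 overexpression and Atf3 sh5 have both colours.

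ATF3 is a stress-induced factor of the AP-1 family. The AP-1 letters overlap 4 of the Hmox1 ARE copies printed above, and not the TGACACAGC copy. Binding of ATF3 to these copies was not tested. The 2 Atf3 hairpins gave different patterns. With sh5, Nfe2l2, Gclc and Txnrd1 were called higher and Keap1, Hmox1 and Slc7a11 lower, where 17.7% of 13345 genes were higher and 18.1% lower. With sh6, 7 genes were higher (Nfe2l2, Gclm, Gclc, Txnrd1, Srxn1, Slc7a11 and Gsr) and the other 3 did not pass, with 23.8% and 26% of all genes. Both hairpins share the control libraries.

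Hmox1 had 87.58, 102.8 and 73.7 CPM with sh5, 237.3, 220.6 and 209.0 with sh6 and 206.4, 199.4 and 210.9 in the control. The sh5 libraries lay below the rest (2.34-fold, log2 -1.22 ± 0.11, adjusted p = 1.05e-04), and sh6 overlapped the control (log2 0.11, 95% interval -0.10 to 0.33). Slc7a11 had 10.02, 11.1 and 9.698 CPM with sh5, 23.19, 22.06 and 20.57 with sh6 and 15.14, 12.89 and 12.52 in the control. It was lower with sh5 (log2 -0.40 ± 0.12, adjusted p = 0.0249), a call lost without sh5 replicate 1, control replicate 1 or control replicate 2 (0.0549 to 0.0951), and higher with sh6 (0.70 ± 0.11, adjusted p = 5.62e-04).

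Nfe2l2 rose with both, from 115.1, 99.86 and 110.3 CPM in the control to 149.2, 148.9 and 204.7 with sh5 and 155.9, 182.0 and 175.1 with sh6. The rise was 1.55-fold (adjusted p = 0.00487) and 1.58-fold (adjusted p = 0.00160), and the difference between the hairpins did not pass (log2 0.03, 95% interval -0.22 to 0.28). Without sh5 replicate 3, which stood apart and had the highest Nfe2l2 of its group, that difference passed (log2 0.18, adjusted p = 0.0487). Without it the sh5 log2 fold changes against the control were 0.48 for Nfe2l2 (adjusted p = 1.44e-04), -1.08 for Hmox1 (9.69e-08) and -0.34 for Keap1 (0.00408), and the 6 sh5 calls kept their side of the threshold. Gclc rose by log2 0.54 ± 0.08 and 0.90 ± 0.08 and Txnrd1 by 0.40 ± 0.07 and 0.62 ± 0.07. Gsr had the largest change with sh6, at 67.41, 67.07 and 61.76 CPM against 24.3, 26.5 and 27.48 (2.51-fold, adjusted p = 2.86e-06), and did not pass with sh5 (29.09, 29.42 and 35.47 CPM, adjusted p = 0.0633). Keap1 was lower with sh5 (49.94, 46.46 and 36.71 CPM against 59.68, 63.43 and 62.9, adjusted p = 0.0107) and did not pass with sh6 (adjusted p = 0.168). Gclm rose with sh6 to 87.46, 91.52 and 84.65 CPM from 61.67, 60.52 and 62.02 (adjusted p = 1.48e-04). Srxn1 was at 210.3, 217.6 and 191.5 CPM with sh6 against 120.2, 118.8 and 117.4 (log2 0.80 ± 0.07), and at 113.9, 107.1 and 116.7 with sh5.

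In the direct comparison, sh6 had 7 of the 10 genes above sh5, Nfe2l2, Keap1 and Nqo1 not passing, where 25.9% of all genes were higher and 26.6% lower. For Nqo1 the difference was log2 0.02 (95% interval -0.17 to 0.21), and it did not pass against the control with either hairpin (adjusted p = 0.0584 and 0.0586). The sh6 libraries differed from the control in cell markers: the 10 muscle markers summed to 197.2 to 217.3 CPM against 38.08 to 39.53, with 7 of 10 detected in each group, Tnni2, Myog and Actn2 at 0 with sh6 and Myod1, Ckm and Actn2 at 0 in the control. The 10 fibroblast markers summed to 19420 to 20390 against 43290 to 45030 CPM, with none at 0. The Y-linked Ddx3y was at 120.1 to 135.5 against 79.89 to 87.16 CPM. The sh5 libraries differed from the control too, with muscle markers at 14.6 to 18.11 CPM (5 of 10 detected, Tnni2, Myog, Myod1, Ckm and Actn2 at 0), fibroblast markers at 29350 to 41840, endothelial markers at 8.504 to 10.37 against 13.78 to 15.98 (7 of 8 detected, Tie1 at 0 in both) and Ddx3y at 92.06 to 104.3 CPM. Xist was at 407.4 to 463.7 with sh5, 199.5 to 269 with sh6 and 301 to 326.9 in the control. Macrophage markers summed to 19.34 to 24.25 CPM with sh5, 13.77 to 14.18 with sh6 and 16.5 to 18.01 in the control. Cd163 was at 0 in each group, Adgre1 with both hairpins and C1qa, C1qc and Tyrobp with sh6. Keratinocyte markers summed to 7.105 to 9.62, 9.586 to 10.01 and 11.68 to 12.62 CPM in the same order. Krt1 was at 0 in each group, Krt14 with both hairpins and Krt5 with sh5. Their part in the sh5 and sh6 results was not tested. Of 76 pathway genes, 13 were higher and 21 lower with sh5 (17.7% and 18.1% over all genes) and 25 and 22 with sh6 (23.8% and 26%). Tfrc rose with both (log2 0.92 ± 0.09 and 2.41 ± 0.09) and Chac1 fell with both (-1.15 ± 0.26 and -1.91 ± 0.27). Txnip fell with both as well (-0.40 ± 0.07 and -2.03 ± 0.08), while Dpp3 fell with sh5 (-1.43 ± 0.15) and did not pass with sh6 (adjusted p = 0.951).

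The genes whose level ran most like each of the 10 were sought among 12104 genes over the 44 libraries, after the mean of each experiment was taken off. Hmox1 was most like Ftl1, the ferritin light chain gene (r = 0.890). Gsr was most like Noc4l (0.920), Keap1 like Ddx54 (0.918), Slc7a11 like Nsd2 (0.910), Gclc like Slc20a1 (0.892), Srxn1 like Procr (0.891), Nfe2l2 like Degs1 (0.872), Nqo1 like Erlin2 (0.825), Gclm like Csf1 (0.807) and Txnrd1 like Lrig1 (0.806). The libraries of a group share their treatment, so these values describe the 14 groups as much as the libraries.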

How the data were processed

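The deposited RNA-seq values were raw counts per gene. The authors made them with Trimmomatic 0.39 trimming, HISAT2 2.2.1 alignment (mm10) and HTSeq 0.12.4 counting, per the submitters' processing notes. Counting ignored strand, so antisense reads cannot be told apart. Summary rows (7.5 to 16.8% of all in 28 files) were left out. The deposited ATAC-seq peak lists of the authors, from reads aligned with Bowtie2 2.3.5.1 and called with MACS2, give a fold enrichment ratio and -log10 p-values and q-values per sample. Depth behind the peaks is unknown, and methylation samples were not analysed here. Each experiment was fitted with edgeR 4.0.16 (quasi-likelihood test, TMM, filterByExpr, Benjamini-Hochberg over all genes) in R 4.3.3, with all its groups, after a test on simulated counts. Standard errors are the log2 fold change over the root of F. All 10 genes were named. From the pathway lists the text names up to 2 genes passing with the highest and 2 with the lowest log2 fold change (average log2 CPM of at least 3), per list at P7 against P1 and over all lists elsewhere. Members and lists were chosen with earlier results of these data known. Labels do not say whether replicates are separate cultures, so p-values measure the spread between these samples, which may be technical. Alternatives were DESeq2 1.42.0 (test or size factors), other count filters, a replicate block, only the groups compared, other peak windows and measures, and leaving out each library. The Python figures and searches used pysam 0.24.0 and scipy 1.17.1 with RefSeq GRCm38.p6.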

Additional observations from a re-analysis of the deposited data

Results flagged for a closer look

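The 2 Tead1 hairpins differed in 7 of the 10 genes by edgeR's test of sh4 against sh3. The log2 differences were -0.58 for Hmox1, -0.55 for Nqo1, -0.30 for Gsr, -0.27 for Gclm, -0.26 for Slc7a11, -0.24 for Nfe2l2 and -0.19 for Srxn1, with every sh4 library below every sh3 library in each of these genes (adjusted p = 4.64e-10 to 0.0286). The Slc7a11 difference lost its call when any single library of sh4, or sh3 replicate 2 or 3, was left out (adjusted p = 0.057 to 0.132), and under DESeq2 (0.0579).

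The 2 Atf3 hairpins differed in 7 genes as well. With sh6 against sh5, the log2 differences were 1.34 for Hmox1, 1.09 for Slc7a11, 1.06 for Gsr, 0.88 for Srxn1, 0.64 for Gclm, 0.35 for Gclc and 0.22 for Txnrd1, with no overlap between the libraries (adjusted p = 6.11e-06 to 0.0222). The Txnrd1 difference lost its call without sh5 replicate 1 or 2 or sh6 replicate 1 or 2 (0.0619 to 0.0937).

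Among 50 groups of 4 samples, 3 held a sample far from the other 3, where chance flags about 1 group in 20. They were Srxn1 in P7 replicate 2 (160.3 CPM, above the others), Gsr in P5 replicate 2 (44.6 CPM, below) and the start-site peak of Hmox1 in P1 replicate 1 of ATAC-seq (percentile 91.47, below).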

How the results depend on the processing

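Of the 130 log2 fold changes of the 10 genes, 10 that did not pass, all within 0.05 of 0, changed sign in 3 of 760 alternative values with all libraries and 23 of 860 with 1 library left out, and did not pass there either. With 1 library left out they ranged from -0.05498 to 0.0252 for Gclm at P5 against P3, -0.04371 to 0.004403 for Nfe2l2 at P7 against P3, -0.007843 to 0.1194 for Nfe2l2, -0.02522 to 0.1406 for Keap1 and -0.04734 to 0.08099 for Gclc at P7 against P5, -0.08504 to 0.1337 for Gsr with E2f4 sh1, -0.02497 to 0.0147 for Keap1 and -0.04263 to 0.01247 for Slc7a11 with Tead1 sh4, and -0.0494 to 0.1811 for Nfe2l2 and -0.03641 to 0.07151 for Nqo1 with Atf3 sh6 against sh5. With only the 2 groups compared, Nfe2l2 at P7 against P3 was 0.006159, and with at least 10 counts in every library Keap1 with Tead1 sh4 was 0.0005629 and Nqo1 with Atf3 sh6 against sh5 was -0.01052. With all libraries, 17 calls were lost and 6 gained, and with 1 left out, 66 and 10. Counts of genes passing moved for the neighbouring passages. Without a filter on low counts, P3 against P1 had 3 (5 as reported) and P5 against P3 had 4 (7 as reported). With only the 2 groups compared, P7 against P5 had 3 (6 as reported), fewer samples then giving the spread. Leaving out 1 library gave 2 to 5 for P3 against P1 and 4 to 7 for P5 against P3. P3 against P1 had 2 without P1 replicate 3 or P3 replicate 2 and 3 without P1 replicate 1 or 2 or P3 replicate 3 or 4. P5 against P3 had 4 without P3 replicate 2, 3 or 4 or P5 replicate 4. The other counts of the 10 genes passing stayed within 1.5 times. Of 162 alternative counts of pathway genes passing, 9 moved. The share of peaks with ARE letters fell to 16.9% within 100 bases of the summit (all peaks 11.2%), a shorter stretch. By fold enrichment, 1 promoter (Slc7a11) was higher and 3 (Keap1, Gclc and Nqo1) lower at P7 against P1. Correlations of same-numbered passage libraries ran from -0.262 to 0.276, with a mean of 0.0745 beside -0.0246 for other pairs. They do not settle whether replicate numbers pair the libraries. A replicate block gave 5 genes passing for P3 against P1, 7 for P5 against P3 and 5 for P7 against P5. It took the call from Hmox1 at P5 against P3 (adjusted p = 0.0595) and Gsr at P7 against P5 (0.053), gave one to Nqo1 at P5 against P3 (0.0233) and changed no other call of the 10 genes. Peak lists hold no read counts, and Atf3, at 8 to 78 reads a library, was measured with low precision.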
